A study of Arabidopsis thaliana with 9 samples.

Results

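The 10 genes described here encode the protein-folding chaperonins of mitochondria and plastids and the mitochondrial HSP70 chaperones of Arabidopsis thaliana. They were picked by their gene identifiers with earlier results of these data known, so their values in the comparisons below are a description and carry no test. They are 10 of the 26984 named genes in the deposited files, 6 for mitochondrial and 4 for plastid proteins, and all 10 passed the minimum of 1 FPKM in at least 3 of the 9 libraries. Transcript levels were measured by RNA sequencing of total RNA from whole seedlings at 7 days of age, kept under short days and collected at ZT20, which is 20 h after lights-on. The 3 groups of 3 libraries were wild type (Col-0), the cop1-6 mutant, which carries an allele of the ubiquitin ligase gene COP1, and the cor27cor28 double mutant of 2 cold- and clock-regulated genes. All groups share this age, day length and harvest time, and no further allele or agent is named in the labels.

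Chaperonins are large double-ring or single-ring barrels that enclose an unfolded protein and let it fold, with a small cochaperonin that closes the barrel as a lid. In plant mitochondria the barrel is built from HSP60 subunits and capped by CPN10. In plastids it is a mixture of alpha and beta CPN60 subunits capped by CPN20 and smaller lids, and it was first known as the factor that binds newly made Rubisco large subunits. Mitochondrial HSP70 pulls imported proteins across the inner membrane and hands part of them on to HSP60. All of these proteins are encoded in the nucleus and imported into their organelle.

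FPKM scales fragments by transcript length and by the mapped fragments of the library, so levels can be compared between genes, although short transcripts such as that of CPN10 depend more on the length used. The FPKM of a library summed to between 515929 and 612462, and no source used here gives their read numbers, which leaves the depth unknown. Log2 fold changes are of FPKM + 1 and understate the change of genes with low values. The labels do not say whether the libraries came from separate batches of plants, and SDs, SEs and p-values cover no more than the spread among these libraries, which may be technical. A lower level in whole seedlings can mean fewer cells of a type or less RNA per cell, and these cannot be told apart. COP1 was not analysed here, and COR27 was higher in the libraries labelled cor27cor28 (48.7 ± 1.24 FPKM) than in wild type (15.3 ± 2.55 FPKM). COR28 was at 2.23 ± 0.659 FPKM there, beside 2.58 ± 0.597 FPKM in wild type (limma adjusted p = 0.573). Neither targeted transcript was called lower, so transcript levels do not check that label.

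The genes are distinct in sequence, which bears on whether reads could have been shared between them. HSP60 (AT3G23990, chr3:8668772-8672578, plus strand, 16 exons in TAIR10.1) and HSP60-2 (AT2G33210, chr2:14074767-14078772, minus strand, 17 exons) had identical bases at 79.6% of 1732 aligned coding positions. CPN60B1 (AT1G55490, chr1:20715563-20719261, minus strand) and CPN60B2 (AT3G13470, chr3:4389215-4393015, plus strand), both with 15 exons, were the closest pair, with 88.0% of 1790 aligned coding bases identical. A stretch of 60 coding bases of each pair is shown from the RefSeq TAIR10.1 genome, with the bases that differ within the pair in capitals, to show how often a read could tell the copies apart. It covers bases 877 to 936 of the HSP60 coding sequence, 880 to 939 of HSP60-2, 902 to 961 of CPN60B1 and 890 to 949 of CPN60B2.
HSP60: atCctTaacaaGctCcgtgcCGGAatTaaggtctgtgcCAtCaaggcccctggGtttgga
HSP60-2: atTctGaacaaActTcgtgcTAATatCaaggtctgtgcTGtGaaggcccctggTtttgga
CPN60B1: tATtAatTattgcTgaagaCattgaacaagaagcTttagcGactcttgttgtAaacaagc
CPN60B2: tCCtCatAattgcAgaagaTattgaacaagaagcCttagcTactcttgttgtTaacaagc
There were 13 differing bases in the HSP60 stretch and 9 in the CPN60B stretch. Of all 50-base windows in the exons, 10 of 2734 in CPN60B1 and 10 of 2299 in CPN60B2 occurred in both genes, and no window of HSP60, HSP60-2, HSP60-3A, CPN10, MTHSC70-1, CPN60A or CPN20 occurred elsewhere in the genome. MTHSC70-2 (AT5G09590, chr5:2975436-2978750, plus strand, 6 exons) was the exception, with 413 of 2527 windows (16.3%) also present in AT4G32208 on chromosome 4. That gene was at 0.212 to 0.834 FPKM in the 9 libraries, far below MTHSC70-2. How reads from the shared windows were assigned is not known. Either level may hold a part of the other gene's reads, which was not tested. CPN10, CPN60B1, CPN60B2 and CPN20 overlap other annotated genes by 27, 49, 553 and up to 304 bases. The overlap of CPN10 is with a gene on the same strand, so a strand setting could not separate its reads. The others are with genes on the opposite strand. No strand setting for the counting is given in the sources used here, so reads from those overlaps cannot be told apart either.

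The sequence before the gene starts was searched for motifs, which the choice of the genes did not use. Of the 10 genes, 7 had at least 1 site II element (TGGGCC or TGGGCT, either strand) in the 250 bases upstream of the annotated start, against 19.2% of the 27443 protein-coding genes searched the same way. Most other gene lists used here were also above that share, with 5 of 6 nucleolar ribosome biogenesis genes, 5 of 9 heat-inducible genes, 9 of 18 mitochondrial import genes, 3 of 6 other chaperonin and cochaperonin genes and 5 of 11 partners of mitochondrial HSP70. Site II elements are bound by TCP transcription factors and are known from many genes for mitochondrial and ribosomal proteins. The 7 were HSP60-2, HSP60-3A, MTHSC70-1 and MTHSC70-2 for mitochondria and CPN60A, CPN60B1 and CPN60B2 for plastids. Of these 7, 6 had 2 or more elements, against 11.95% of all genes. HSP60, CPN10 and CPN20 had none in this window. The upstream bases not covered by another annotated gene are shown for 5 of them, in the direction of the gene, with site II letters in capitals (GGCCCA and AGCCCA are the same element on the other strand). They are chr2:14078773-14078849 for HSP60-2 and chr1:20719262-20719472 for CPN60B1 on the minus strand. On the plus strand they are chr5:2975209-2975435 for MTHSC70-2, chr2:11926196-11926445 for CPN60A and chr3:4388965-4389214 for CPN60B2, all from RefSeq TAIR10.1.
HSP60-2: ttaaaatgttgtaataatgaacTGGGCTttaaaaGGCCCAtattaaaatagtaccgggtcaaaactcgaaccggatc
MTHSC70-2: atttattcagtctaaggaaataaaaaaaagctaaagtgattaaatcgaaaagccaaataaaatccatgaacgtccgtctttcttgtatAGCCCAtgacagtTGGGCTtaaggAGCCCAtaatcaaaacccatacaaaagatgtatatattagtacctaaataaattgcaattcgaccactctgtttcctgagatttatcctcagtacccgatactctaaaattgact
CPN60A: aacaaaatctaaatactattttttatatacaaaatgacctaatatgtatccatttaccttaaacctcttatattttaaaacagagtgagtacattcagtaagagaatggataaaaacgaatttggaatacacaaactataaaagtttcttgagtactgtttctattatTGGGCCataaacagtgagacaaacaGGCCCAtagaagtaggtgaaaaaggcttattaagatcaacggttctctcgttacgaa
CPN60B1: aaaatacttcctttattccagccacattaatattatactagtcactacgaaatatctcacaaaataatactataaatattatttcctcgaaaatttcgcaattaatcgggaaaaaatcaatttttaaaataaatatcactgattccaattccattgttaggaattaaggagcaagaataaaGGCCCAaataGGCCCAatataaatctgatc
CPN60B2: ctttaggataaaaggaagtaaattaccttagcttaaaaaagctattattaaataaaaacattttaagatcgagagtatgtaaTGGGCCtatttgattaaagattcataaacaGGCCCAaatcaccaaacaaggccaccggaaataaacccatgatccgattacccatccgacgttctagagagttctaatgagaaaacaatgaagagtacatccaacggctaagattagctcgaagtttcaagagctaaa
The elements were paired at short distance in HSP60-2 and CPN60B1, and MTHSC70-2 had 3 within 30 bases. CPN60B1 and CPN60B2, so alike in their coding sequence, carried the pair at different distances from the start, with the nearest element ending 15 bases upstream in CPN60B1 and 133 bases upstream in CPN60B2. The 77 bases before HSP60-2 are also the start region of the divergent neighbour AT2G33220, which encodes a GRIM-19 protein, a subunit of respiratory complex I. Both elements of MTHSC70-1 lay within the annotated neighbour AT4G37920 rather than between genes. No promoter of the 10 held the mitochondrial dysfunction motif (CTTG and CAAG with 5 bases between them, in 0.740% of all), a heat shock element (GAA, TTC and GAA, or TTC, GAA and TTC, each 2 bases apart, in 0.386%), a G-box (CACGTG, in 6.49%) or a telo-box (AAACCCTA, in 4.49%). The absence of these letters from the window says nothing of the factors that bind them.

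**Figure D1:**
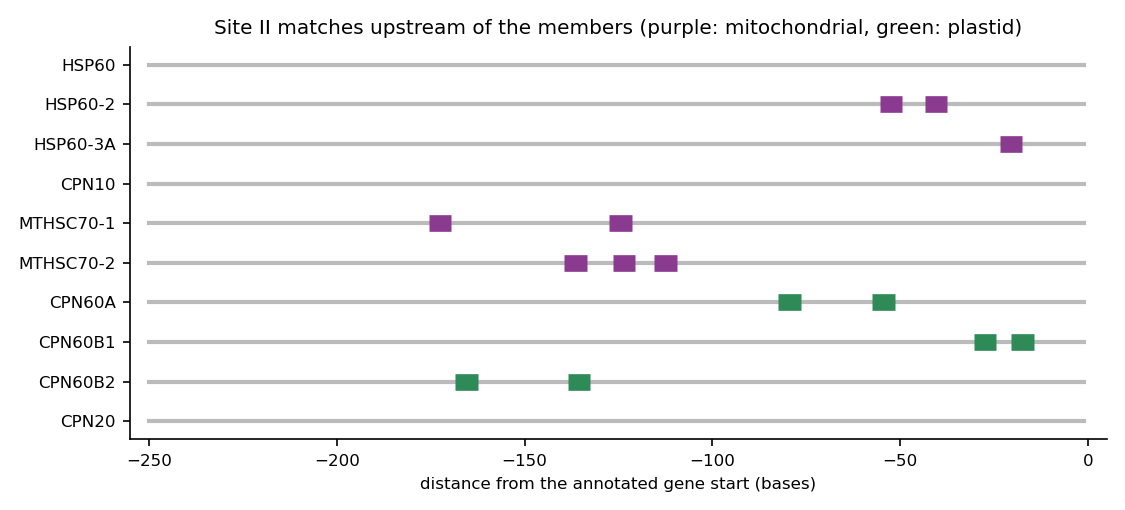
Positions of site II matches (TGGGCC or TGGGCT, either strand; bars, drawn to scale) in the 250 bases upstream of the annotated start of each of the 10 genes (x axis, distance from the start in bases). Of the 10 genes, 7 have a match, and the pair of MTHSC70-1 lies inside a neighbouring gene.

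In wild type the plastid chaperonin transcripts were far more abundant than the mitochondrial ones. CPN20 was highest, at 404 ± 20.3 FPKM (mean ± SD, n = 3, as in all levels below), followed by CPN60B1 at 350.4 ± 22.1 and CPN60A at 346 ± 2.49 FPKM, whose libraries overlapped. CPN60B2 stood below these at 76.6 ± 6.03 FPKM. Among the mitochondrial genes the order was HSP60 (40.6 ± 0.649 FPKM), MTHSC70-1 (32.6 ± 1.84), CPN10 (24.3 ± 1.51), MTHSC70-2 (13.8 ± 1.46), HSP60-2 (12.7 ± 0.671) and HSP60-3A (8.52 ± 0.407). MTHSC70-2 and HSP60-2 overlapped, and each of the other neighbours in this order was separate over its 3 libraries. The order changed little in the mutants: in the libraries labelled cor27cor28, HSP60-2 moved above MTHSC70-2, and the libraries of that pair overlapped there too. In both mutants CPN20, CPN60B1 and CPN60A ran together, each overlapping the gene above it.

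**Figure D2:**
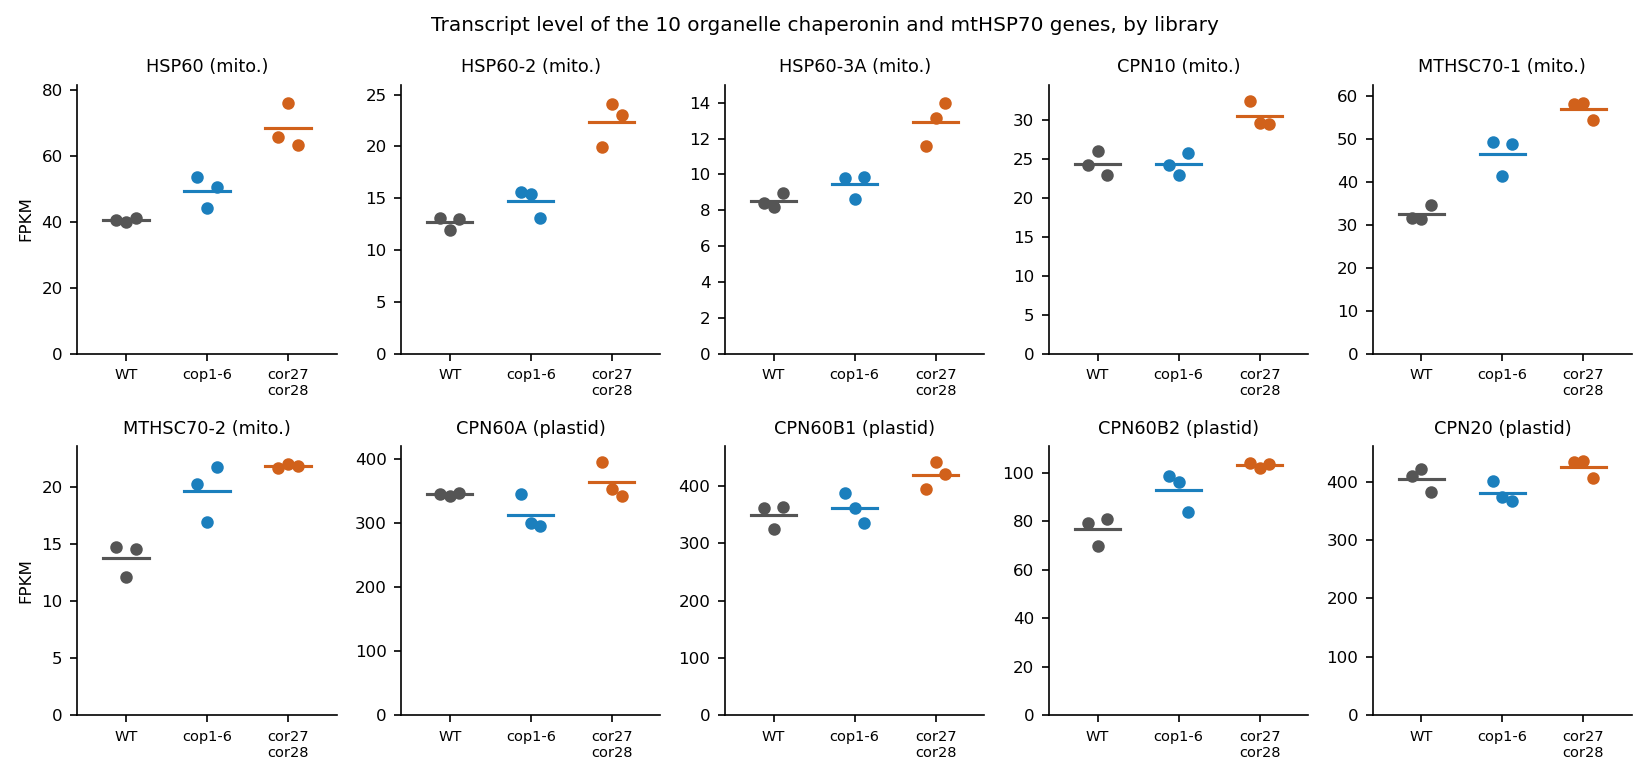
FPKM of the 10 genes in the 3 wild-type (WT), 3 cop1-6 and 3 cor27cor28 libraries (points), with the group mean as a line; each panel has its own axis from 0. The HSP60 points lie at 39.9 to 41.2 FPKM in wild type and at 63.3 to 76.1 FPKM in the libraries labelled cor27cor28, while the CPN60A points of the groups overlap.

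The HSP60 subunits form the wall of the mitochondrial barrel. All 3 subunit genes lay above the wild-type libraries without overlap in the libraries labelled cor27cor28. In cop1-6 HSP60 and HSP60-2 did so, HSP60 alone of the 3 was called, and HSP60-3A overlapped with wild type. HSP60 was at 40.6, 39.9 and 41.2 FPKM over the wild-type replicates, at 53.5, 44.1 and 50.7 FPKM in cop1-6 and at 65.8, 76.1 and 63.3 FPKM in the libraries labelled cor27cor28. The 3 groups did not overlap. Its log2 fold change from wild type was 0.27 ± 0.09 (SE) in cop1-6 and 0.73 ± 0.09 in the libraries labelled cor27cor28, which is 1.22 and 1.69 times the wild-type mean.

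HSP60-2 was at 13.1, 11.9 and 13.03 FPKM over the wild-type replicates, at 15.6, 15.4 and 13.1 in cop1-6, and at 19.9, 24.1 and 23.0 in the libraries labelled cor27cor28. The lowest cop1-6 library lay just above the wild-type range, and the libraries labelled cor27cor28 were above the other 6. HSP60-2 was 1.77 times the wild-type mean there, against 1.16 times in cop1-6. HSP60-3A, the least expressed subunit gene, ranged from 8.19 to 8.98 FPKM in wild type, from 8.61 to 9.88 in cop1-6 and from 11.6 to 14.0 in the libraries labelled cor27cor28. Its cop1-6 and wild-type libraries overlapped, and its level in the libraries labelled cor27cor28 was 1.52 times that of wild type. HSP60 made up a steady share of the 3 genes' summed FPKM, with means of 65.7% in wild type, 67.1% in cop1-6 and 65.9% in the libraries labelled cor27cor28, and these ranges overlapped.

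CPN10, the mitochondrial lid, differed less than the barrel. It was at 24.2, 25.9 and 22.9 FPKM over the wild-type replicates, 24.1, 22.9 and 25.7 in cop1-6 and 32.4, 29.6 and 29.4 in the libraries labelled cor27cor28. The cop1-6 libraries overlapped with wild type, and those labelled cor27cor28 lay above it (log2 fold change 0.31 ± 0.08 SE). The ratio of the summed HSP60 genes to CPN10 was therefore higher in both mutants, at 2.55 ± 0.223 in wild type, 3.04 ± 0.21 in cop1-6 and 3.41 ± 0.41 in the libraries labelled cor27cor28. Neither mutant's libraries overlapped wild type in this ratio, and the mutants overlapped each other.

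The mitochondrial HSP70 genes had the largest differences from wild type among the 10 genes in cop1-6. MTHSC70-1 was at 31.7, 31.4 and 34.7 FPKM over the wild-type replicates, 49.3, 41.4 and 48.9 in cop1-6, and 58.3, 58.4 and 54.5 in the libraries labelled cor27cor28. The 3 groups did not overlap, and the log2 fold changes from wild type were 0.50 ± 0.08 and 0.79 ± 0.08 (SE). MTHSC70-2 was at 14.8, 12.2 and 14.6 FPKM over the wild-type replicates, 20.3, 17.0 and 21.8 in cop1-6, and 21.7, 22.0 and 21.8 in the libraries labelled cor27cor28. Both mutants lay above wild type and overlapped each other, with log2 fold changes of 0.48 ± 0.11 and 0.63 ± 0.11 (SE). The ratio of the summed HSP60 genes to the summed mtHSP70 genes was 1.33 ± 0.0475 in wild type, 1.11 ± 0.0651 in cop1-6 and 1.31 ± 0.0965 in the libraries labelled cor27cor28. In cop1-6 the balance was thus lower than in all 6 other libraries, while the libraries labelled cor27cor28 overlapped wild type.

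Of the plastid subunits, CPN60A, the alpha subunit, had overlapping libraries in all comparisons. It was at 346, 343 and 348 FPKM over the wild-type replicates, 345, 299.8 and 296 in cop1-6 and 396, 353 and 343 in the libraries labelled cor27cor28. Its log2 fold changes from wild type were −0.14 ± 0.08 and 0.07 ± 0.08 (SE). CPN60B1, the main beta subunit, ranged from 325 to 364 FPKM in wild type, from 336 to 388 in cop1-6 and from 396 to 442 in the libraries labelled cor27cor28, which were above the other 6 libraries.

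CPN60B2, the minor beta subunit, was at 79.2, 69.7 and 80.8 FPKM over the wild-type replicates, 98.6, 96.1 and 83.8 in cop1-6 and 104, 102 and 103 in the libraries labelled cor27cor28. The groups did not overlap, and its log2 fold changes of 0.27 ± 0.08 and 0.43 ± 0.08 (SE) were the highest of the 4 plastid genes. CPN60B1 was 4.58 ± 0.0787 times CPN60B2 in wild type, 3.90 ± 0.121 times in cop1-6 and 4.07 ± 0.264 times in the libraries labelled cor27cor28, with both mutants below all wild-type libraries. The ratio of alpha to summed beta transcripts was 0.812 ± 0.0496 in wild type and 0.690 ± 0.031 in cop1-6, without overlap. It was 0.699 ± 0.0812 in the libraries labelled cor27cor28, where replicate 1, at 0.792, lay within the wild-type range.

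CPN20, the plastid lid made of a tandem of cochaperonin domains, ranged from 382 to 421 FPKM in wild type, from 367 to 401 in cop1-6 and from 407 to 436 in the libraries labelled cor27cor28. The mutants each overlapped wild type. Summed CPN60 subunits stood at 1.92 ± 0.163 times CPN20 in wild type, 2.02 ± 0.062 times in cop1-6 and 2.09 ± 0.0399 times in the libraries labelled cor27cor28. These ranges overlapped between wild type and each mutant. The ratio leaves out the smaller lid genes CHL-CPN10 (78.7 ± 14.0 FPKM in wild type) and CPN10-2 (94.5 ± 7.13 FPKM). It is therefore not a ratio of barrel to all lids, and was not compared with that of mitochondria.

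The balance of plastid CPN60 to mitochondrial HSP60 transcripts thus differed between the groups. A ratio within a library does not depend on how libraries are scaled to each other. The summed FPKM of the 3 plastid CPN60 genes was 12.7, 12.3 and 12.5 times that of the 3 mitochondrial HSP60 genes in wild type, 10.5, 11.1 and 9.72 times in cop1-6, and 9.20, 7.92 and 8.64 times in the libraries labelled cor27cor28. None of the 3 groups overlapped another. In cop1-6 the summed HSP60 level was 73.6 ± 5.4 FPKM against 61.8 ± 1.64 in wild type, while the CPN60 sum was 769 ± 58.9 against 773 ± 30.5. In the libraries labelled cor27cor28 both sums were higher, at 104 ± 8.49 and 887 ± 17.1 FPKM.

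**Figure D3:**
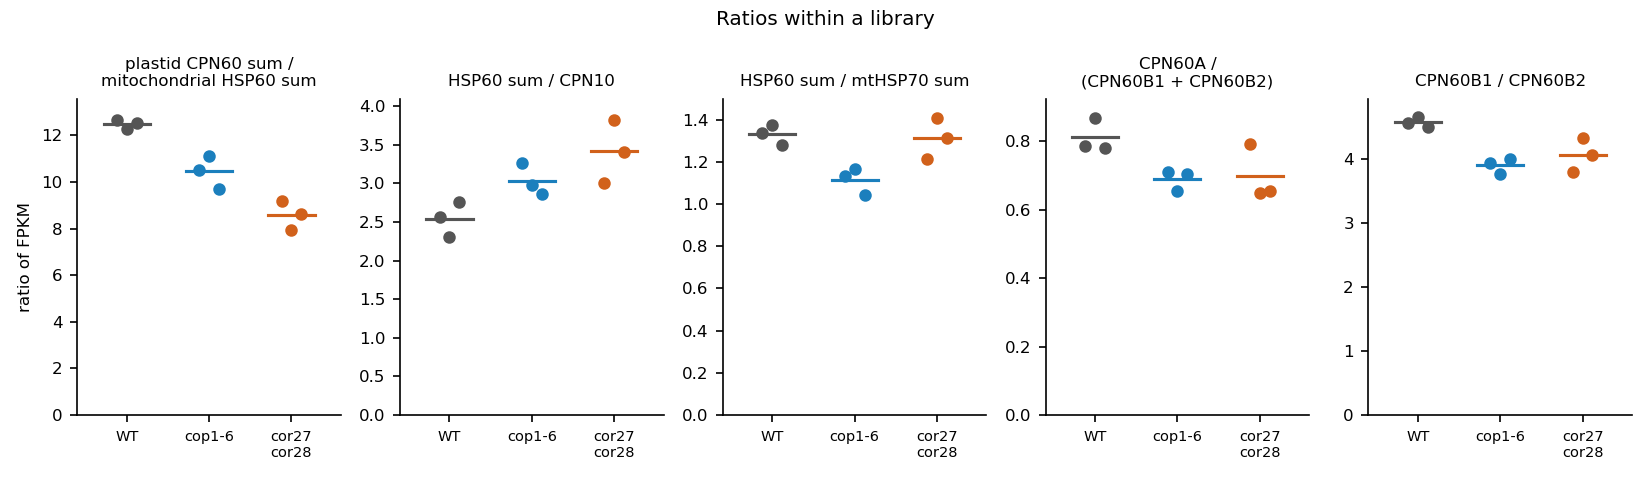
Ratios of FPKM within each library (points) with the group mean (line) for 3 wild-type (WT), 3 cop1-6 and 3 cor27cor28 libraries; all axes start at 0. The ratio of plastid CPN60 to mitochondrial HSP60 transcripts has a mean of 12.5 in wild type, 10.5 in cop1-6 and 8.59 in the libraries labelled cor27cor28, without overlap.

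The comparison of cop1-6 with wild type is of whole seedlings that also differed in tissue markers (below), and dependence on COP1 was not tested. Counted by organelle, 3 of 6 mitochondrial genes (HSP60, MTHSC70-1 and MTHSC70-2) and 1 of 4 plastid genes (CPN60B2) were called higher by limma at an adjusted p under 0.05, and none was called lower. Over the 17075 genes tested 10.9% were called higher and 38.6% lower, so that 49.5% were called in all. By libraries, 4 mitochondrial genes and 1 plastid gene were higher without overlap and none was lower, beside 12.9% and 44.3% of all genes tested. The median log2 fold change was 0.24 for the mitochondrial and −0.02 for the plastid genes, beside −0.21 for all genes tested. Since the median gene was lower by this much, scaling matters: with median-of-ratios scaling the medians were 0.49 for the mitochondrial and 0.24 for the plastid genes, and 8 of the 10 were called higher. The median of all genes was then 0.009, and 22.5% of them were called higher and 20.5% lower. Only 2 of the 10 were called without wild type replicate 2, and again 2 without cop1-6 replicate 1, with no plastid gene among them.

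For the libraries labelled cor27cor28, all 6 mitochondrial genes and 2 of 4 plastid genes (CPN60B1 and CPN60B2) were called higher than wild type. Among all genes 14.6% were called higher and 7.29% lower, 21.9% in either direction. The same 8 genes had no overlap between the libraries of the groups, beside 28% of all genes tested that were higher and 13.4% that were lower without overlap. The medians were 0.68 for the mitochondrial and 0.17 for the plastid genes, beside 0.10 for all genes. With median-of-ratios scaling they were 0.55 and 0.03, and 5 of 6 mitochondrial and 1 of 4 plastid genes were called higher, beside 7.4% of all genes called higher and 12.5% lower. Of the plastid genes 1 was called without any one of the wild-type libraries or cor27cor28 replicate 2 or 3. Calls among the mitochondrial and plastid genes together dropped from 8 to 6 without wild type replicate 1 or 3. They dropped to 7 without wild type replicate 2 or any one of the cor27cor28 libraries. A mitochondrial call was thus also lost without wild type replicate 1 or 3 or cor27cor28 replicate 1.

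Set against each other, cop1-6 was lower than the libraries labelled cor27cor28 in all 10 genes, with log2 differences from −0.15 (MTHSC70-2) to −0.57 ± 0.10 (HSP60-2). Of the 10, 7 were called lower and 0 higher, against 56.6% and 9.19% of all genes tested (65.8% in either direction). Libraries did not overlap in 8 of the 10, all lower in cop1-6, against 59.8% of all genes lower and 9.94% higher in this way. The direction rests on the scaling: with median-of-ratios scaling none of the 10 was called, beside 19.4% of all genes called higher and 14.1% lower, and 7 of the 10 had a value above 0, among them CPN60A (0.18) and CPN60B1 (0.18). The 2 comparisons with wild type share its 3 libraries, and all 3 comparisons share libraries in pairs.

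**Figure D4:**
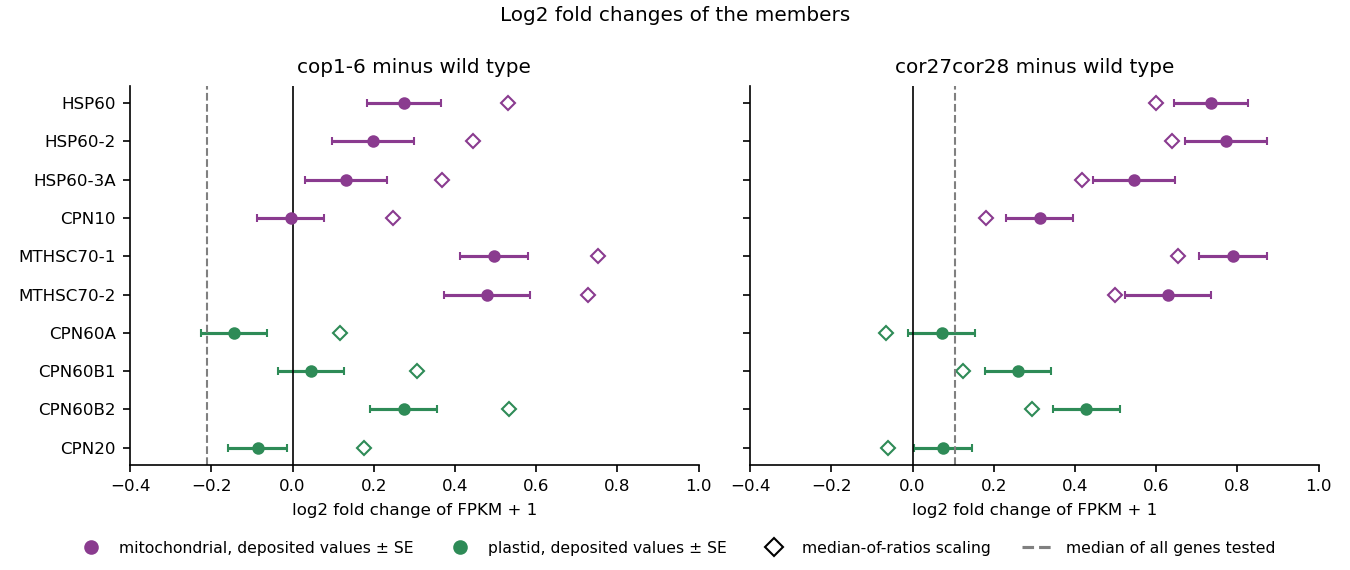
Log2 fold change of FPKM + 1 against wild type for each of the 10 genes in cop1-6 (left) and the libraries labelled cor27cor28 (right), for mitochondrial (purple) and plastid (green) genes. Filled points with bars are the deposited values ± SE, open diamonds the median-of-ratios scaling, and the dashed line the median of all genes tested (−0.21 and 0.10); CPN10 is the lowest mitochondrial point in both panels.

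Among themselves the 6 mitochondrial genes ran together across the 9 libraries, with pairwise Pearson r of log2 values from 0.58 to 0.96 (median 0.84), and the 4 plastid genes less so, with r from 0.22 to 0.84 (median 0.49). The points share library and genotype, and on deviations from the group means the medians were 0.24 and 0.32. Between a mitochondrial and a plastid gene the median r was 0.59, above that among the plastid genes, and 0.099 on deviations. Within cop1-6, replicate 2 was below the group mean in 5 of 6 mitochondrial genes, and replicate 3 in all 4 plastid genes. Of 4087 other genes with a symbol and a mean of at least 10 FPKM, those most like HSP60 over the 9 libraries were ASP1 (r = 0.99), IMD3, PRL1, CYCD2;1 and PMDH1 (r = 0.97). ASP1, an aspartate aminotransferase gene, was at 43.8 ± 1.4 FPKM in wild type, 49.3 ± 3.4 in cop1-6 and 60.6 ± 3.29 in the libraries labelled cor27cor28. Those most like CPN60A were RPL10B (r = 0.96), SVR7, NRPE5, G1 and EMB1923 (r = 0.88).

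Of the remaining 6 chaperonin and cochaperonin genes, none rose in cop1-6 and 2 fell, which is near the shares of all genes (10.9% higher and 38.6% lower), and in the libraries labelled cor27cor28 3 rose and 1 fell, against 14.6% and 7.29% of all genes. Under median-of-ratios scaling 3 were called higher and 1 lower in cop1-6. In cop1-6 the lower calls were 1 without wild type replicate 2 or cop1-6 replicate 1, and 1 gene was called higher without wild type replicate 3 or cop1-6 replicate 2 or 3. Without cor27cor28 replicate 2 the calls there were 1 higher and 0 lower. CPN10-2 (AT3G60210), a plastid lid of the GroES type, fell from 94.5 ± 7.13 FPKM in wild type to 65.5 ± 3.33 in cop1-6 and 73.6 ± 4.83 in the libraries labelled cor27cor28 (limma adjusted p = 0.000202 and 0.00976). CPN60A2, a second alpha-type subunit gene, rose from 2.14 ± 0.474 to 3.71 ± 0.347 FPKM in the libraries labelled cor27cor28 (limma adjusted p = 0.0107).

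Partners of mitochondrial HSP70 rose more often in the libraries labelled cor27cor28 than they fell. Of 10 tested, 7 rose and 0 fell there (median log2 fold change 0.56), and in cop1-6 3 rose and 1 fell (0.17). Over all genes tested 14.6% rose and 7.29% fell in the libraries labelled cor27cor28 (median 0.10). In cop1-6 10.9% of all genes rose and 38.6% fell (median −0.21). The 3 that rose in cop1-6 were GFA2, a J-domain cochaperone gene, and MGE1 and MGE2, the nucleotide exchange factors that reset HSP70. Median-of-ratios scaling gave 7 higher and 0 lower calls in cop1-6, and 6 and 0 in the libraries labelled cor27cor28. In cop1-6 only 1 rose without wild type replicate 1 or 2, or cop1-6 replicate 1 or 3. GFA2 rose from 12.3 ± 1.65 FPKM to 20.5 ± 1.23 in cop1-6 and 18.9 ± 1.65 in the libraries labelled cor27cor28 (limma adjusted p = 0.00016 and 0.00287). TIM44-2, which ties HSP70 to the import channel, rose from 10.3 ± 0.773 to 19.4 ± 2.11 FPKM in the libraries labelled cor27cor28 (limma adjusted p = 0.000369).

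Other mitochondrial chaperones and proteases rose in both mutants, 8 of 15 in cop1-6 (median 0.33) and 9 of 15 in the libraries labelled cor27cor28 (median 0.33). Of these genes 0 fell, apart from 1 that was called lower in cop1-6 without wild type replicate 3. Among all genes 10.9% rose and 38.6% fell in cop1-6, and 14.6% and 7.29% in the libraries labelled cor27cor28. Under median-of-ratios scaling 12 of the 15 were called higher in cop1-6 (median 0.57), beside 22.5% of all genes. In the libraries labelled cor27cor28 6 were then called higher (median 0.21), beside 7.4% of all genes. HSP23.5, a mitochondrial small heat shock protein gene, rose from 2.40 ± 0.288 FPKM to 12.2 ± 5.85 and 11.4 ± 0.567 FPKM (limma adjusted p = 0.000156 and 0.001). LON1, an ATP-dependent protease gene of the matrix, rose from 6.03 ± 0.538 to 10.1 ± 1.2 and 11.7 ± 0.701 FPKM. Mitochondrial stress genes, which answer to impaired respiration, rose in 10 of 11 and 8 of 11 cases. AOX1A, the alternative oxidase, went from 10.4 ± 2.27 FPKM to 36.3 ± 7.26 and 21.4 ± 1.43 FPKM (limma adjusted p = 3.2e-06 and 0.00152). Their transcription factor gene NAC017, named after its value was seen as the 1 gene of the list that was called lower, fell in cop1-6 (log2 fold change −0.47 ± 0.10 SE, limma adjusted p = 0.00197). It was not called with median-of-ratios scaling (−0.23, limma adjusted p = 0.107).

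Of the protein import genes of mitochondria, 2 of 17 rose and 3 fell in cop1-6 (median −0.14), where 10.9% of all genes rose and 38.6% fell, and 9 rose and 1 fell in the libraries labelled cor27cor28 (median 0.38). Over all genes 14.6% rose and 7.29% fell in the libraries labelled cor27cor28. Median-of-ratios scaling gave 5 higher and 2 lower in cop1-6, and 6 and 1 in the other mutant. Without cor27cor28 replicate 2, 5 were called higher and 0 lower in that mutant. The higher calls in cop1-6 were 1 without any library other than wild type replicates 2 and 3, and 5 were called lower without cop1-6 replicate 3. TIM17-2, a channel subunit, fell from 119.7 ± 7.69 to 82.5 ± 3.74 FPKM in cop1-6 (limma adjusted p = 0.000122). Of 18 nuclear genes for the respiratory chain and carriers, 3 rose and 6 fell in cop1-6, near the shares of all genes, and 8 rose and 0 fell in the libraries labelled cor27cor28. Under median-of-ratios scaling these counts were 6 and 0 in cop1-6, and 1 and 0 in the libraries labelled cor27cor28. There, 2 rose without cor27cor28 replicate 3, and 4 to 5 without any other of its own or the wild-type libraries. The ATP synthase beta genes ATPB-1, ATPB-2 and ATPB-3 in that list are near-identical copies and their split is uncertain.

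Of 11 genes for plastid HSP70 and its partners, 6 rose and 2 fell in cop1-6. Both falls were lost under median-of-ratios scaling (7 higher and 0 lower), and 1 gene was called lower under equal totals and without wild type replicate 1 or 3 or cop1-6 replicate 3. In the libraries labelled cor27cor28 5 rose and 1 fell (2 and 1 under median-of-ratios scaling, and 3 and 0 without cor27cor28 replicate 2). Over all genes 10.9% rose and 38.6% fell in cop1-6, and 14.6% and 7.29% in the libraries labelled cor27cor28. CPHSC70-2, a stromal HSP70 gene, rose from 134 ± 9.28 FPKM to 208 ± 7.66 in cop1-6 and 178 ± 7.01 in the libraries labelled cor27cor28 (limma adjusted p = 2.11e-05 and 0.00282). Other plastid chaperones and Clp protease genes rose in 6 of 13 and 4 of 13 cases, with 1 and 0 falling. Under median-of-ratios scaling 10 of 13 and 1 of 13 were called higher. In the libraries labelled cor27cor28 the higher calls were 2 without wild type replicate 2 or 3 and 1 without cor27cor28 replicate 2 or 3. HSP90.5, the stromal HSP90, rose from 104 ± 7.14 to 173 ± 19.95 and 195 ± 12.4 FPKM (limma adjusted p = 4.55e-05 and 0.000152). CLPB3, a disaggregase gene, rose from 28.5 ± 1.84 to 55.0 ± 3.29 FPKM in cop1-6 (limma adjusted p = 1.81e-06), and its value in the libraries labelled cor27cor28 was 33.1 ± 1.47 FPKM. Of 15 plastid import genes, 1 rose and 4 fell in cop1-6, against 10.9% and 38.6% of all genes, and 5 rose and 0 fell in the libraries labelled cor27cor28. Median-of-ratios scaling gave 7 higher and 1 lower in cop1-6, and 1 and 1 in the other mutant, where 1 to 2 rose without wild type replicate 1 or 2 or cor27cor28 replicate 2 or 3. HSP21, a plastid small heat shock protein gene, was listed at 0 in all 9 libraries.

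Rubisco assembly factors act after the plastid chaperonin. In cop1-6, RBCX1 fell from 41.0 ± 1.2 to 13.9 ± 4.01 FPKM and RBCX2 rose from 41.1 ± 3.32 to 84.6 ± 9.85 FPKM (limma adjusted p = 1.63e-05 and 4.62e-06). In the libraries labelled cor27cor28 RBCX1 was at 34.8 ± 5.44 and RBCX2 at 37.9 ± 2.95 FPKM, and neither passed the test. Heat-inducible genes were called in neither direction in the libraries labelled cor27cor28 (0 of 6, by limma), and in cop1-6 HSP70-4 rose from 5.67 ± 0.465 to 15.1 ± 5.25 FPKM. HSFA7A, a heat shock factor gene, fell there from 8.87 ± 0.637 to 6.98 ± 0.980 FPKM (log2 fold change −0.31 ± 0.11 SE, limma adjusted p = 0.0321). It was not called under median-of-ratios scaling or equal totals (limma adjusted p = 0.593 and 0.373), in a fit of the 2 groups alone, or without wild type replicate 2 or 3 or cop1-6 replicate 1 or 2. All 6 nucleolar ribosome biogenesis genes rose in the libraries labelled cor27cor28 (median 0.92), against 14.6% of all genes. In cop1-6 none of the 6 was called, 1 without cop1-6 replicate 2, and 4 were called higher under median-of-ratios scaling.

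**Figure D5:**
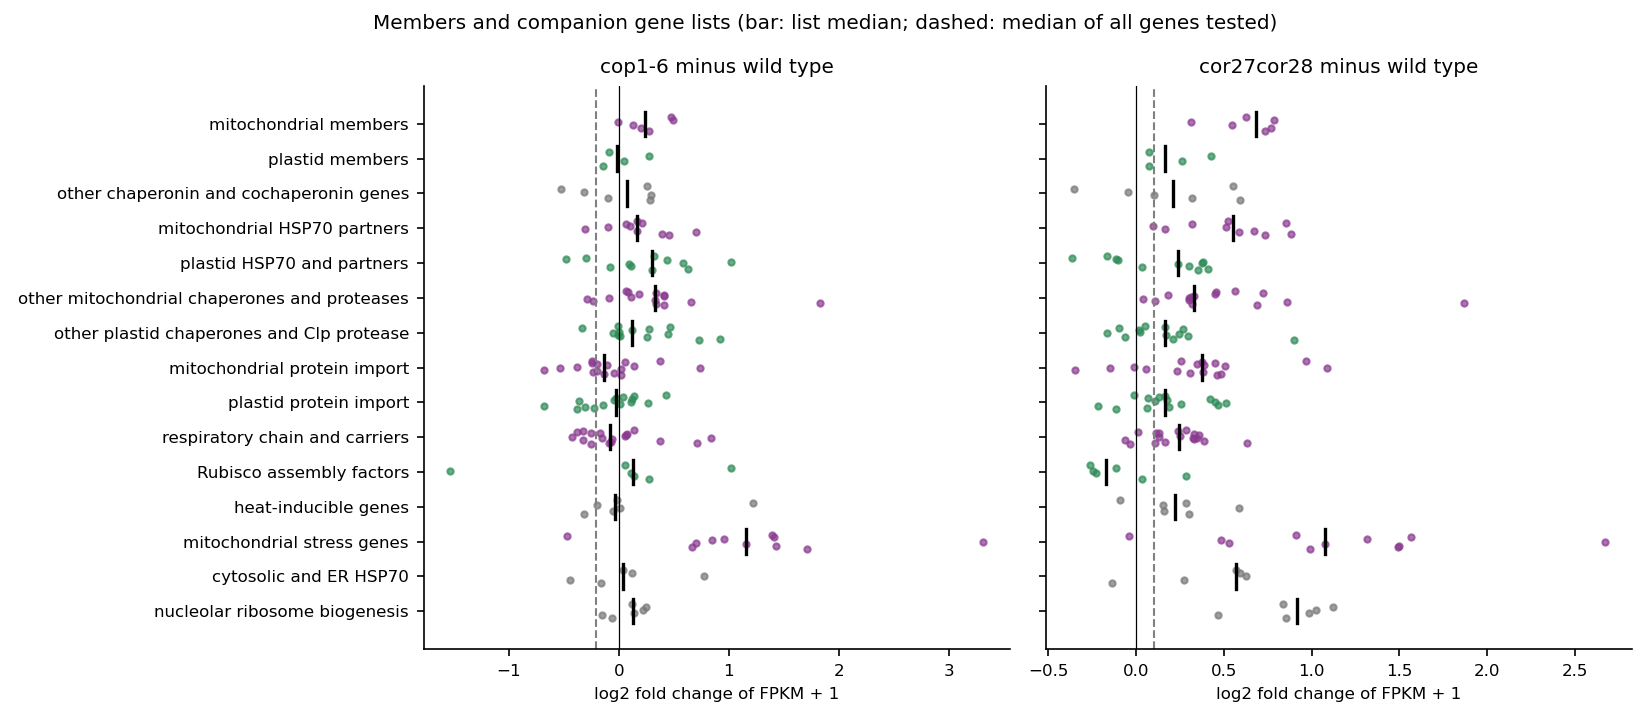
Log2 fold change of FPKM + 1 against wild type of each tested gene (points) in the 10 chaperonin and mtHSP70 genes by organelle (top 2 rows) and in the companion gene lists, for cop1-6 (left) and the libraries labelled cor27cor28 (right). Black bars are list medians, at 0.24 and 0.68 for the mitochondrial genes described here, and the dashed line is the median of all genes tested.

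Markers of other tissues moved with the genotypes, and their part in these levels was not tested. Summed FPKM of 8 root markers was 37.9 to 46.3 in wild type, 2.44 to 3.10 in cop1-6 and 26.1 to 33.3 in the libraries labelled cor27cor28, with 2 of the 8 listed at 0 in all cop1-6 libraries. Summed FPKM of 9 seed markers was 0.724 to 8.08 in wild type, 18.6 to 47.7 in cop1-6 and 1.39 to 6.18 in the libraries labelled cor27cor28. The 5 green leaf markers summed to 18750 to 19763 FPKM, 19200 to 21723 and 12324 to 13678 in the same order, and the 5 dividing cell markers to 79.6 to 82.8, 46.1 to 67.4 and 84.5 to 92.4.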

How the data were processed

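The deposited FPKM values of 9 libraries were used as the authors made them. Tools listed in the submitters' processing notes are DESeq 1.18.0, HISAT2 2.2.1.0, Trimmomatic 0.36, Bowtie2, TopHat and Cufflinks, and the build is TAIR10. Which of them made these values is not stated there. Of 26997 entries per library, 13 without a gene name held at most 0.00203% of the FPKM sum and were left out. Log2(FPKM + 1) of the 17075 genes that reached 1 FPKM in 3 or more libraries was fitted in limma 3.58.1 (R 4.3.3) with 3 genotype groups over all 9 libraries and a variance trend. Benjamini-Hochberg adjusted p under 0.05 over all genes tested is a call, and the step was tested on simulated data.

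The 10 genes and the companion lists were chosen with earlier results of these data known. From each list, up to 3 called genes with the largest absolute fold change per comparison could be named, with a mean of at least 1 FPKM. NAC017, HSP21 and the ATPB copies fall outside this rule and were named after their values were seen. Sequences, gene positions and symbols came from RefSeq TAIR10.1, matched by identifier, and no coordinate came from the files. Alternatives were the pseudocount (0.1), the filter, the scaling, the variance trend, the samples fitted, a replicate block and leaving out each library. Low FPKM steps gave relative depths of 0.999 to 1.06, an indirect measure.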

Additional observations from a re-analysis of the deposited data

How the results depend on the processing

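In cop1-6 against wild type, 4 of the 10 genes were called, beside 8448 of all genes tested. Median-of-ratios scaling gave 8, beside 7319 of all genes, and equal totals gave 7, beside 7021. Values below are given in this order of scalings. The medians in cop1-6 against wild type were 0.49 and 0.42 for the mitochondrial genes and 0.24 and 0.18 for the plastid genes. For cor27cor28 against wild type they were 0.55 and 0.78 for the mitochondrial genes and 0.031 and 0.27 for the plastid genes. In cop1-6 against the libraries labelled cor27cor28 the calls among the 10 went from 7 to 0 and 4. The calls over all genes went from 11235 to 5697 and 9466. The medians were 0.0085 and −0.28 for the mitochondrial genes and 0.21 and −0.093 for the plastid genes. In that comparison 7 of the 10 genes turned positive with median-of-ratios scaling: CPN10 (0.066), MTHSC70-1 (0.10), CPN60A (0.18) and CPN60B1 (0.18), which had been called lower, and MTHSC70-2 (0.23), CPN60B2 (0.24) and CPN20 (0.24), which had not. These differences follow from the scaling factors alone, which ratios within a library do not use.

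Leaving out 1 library in turn gave 2 to 4 calls among the 10 in cop1-6 against wild type, with 2 without wild type replicate 2 and without cop1-6 replicate 1. Over all genes 7245 to 8550 were called in these fits. For cor27cor28 against wild type the calls over all genes ranged from 1834 (without cor27cor28 replicate 2) to 4108, with 2123 without cor27cor28 replicate 3 and 3738 in all libraries. The mitochondrial median ranged from 0.19 to 0.27 in cop1-6 and from 0.63 to 0.71 in the libraries labelled cor27cor28. Of 510 recomputed fold changes of the 10 genes, 466 moved by less than the replicate spread, and 19 changed sign, 15 of them under the scaling alternatives. Many of the 510 could not move. The filter, the variance trend, a fit of the 2 groups alone and the replicate block leave the group means as they are. So does leaving out a library of the group not compared.

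Same-numbered replicates did not deviate together (r from −0.18 to 0.12, and 1 of 9 libraries correlated best with its own number). With the replicate number as a block, 4, 7 and 6 of the 10 genes were called in the 3 comparisons, and 7921, 2967 and 10691 genes overall.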
